A study of Mus musculus with 12 samples.

Results

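Lymphoid-primed multipotent progenitors (LMPPs) and CD115- common dendritic cell progenitors (CDPs) that both lacked histone deacetylase 3 (HDAC3) were compared, to ask which expression differences between these stages were present without the enzyme. The comparison used 4 of the 12 RNA-seq libraries of the series: the 2 libraries labelled as *Hdac3* knockout in LMPPs and the 2 in CD115-CDPs. The 4 control libraries of the same populations, 2 each, are given beside them, and bone marrow pDC libraries were not used. The mice were C57BL/6. Deficient mice carried floxed *Hdac3* alleles and CreERT2 (Hdac3fl/fl CreERT2), a tamoxifen-inducible recombinase expressed in all cells, and control mice carried the floxed alleles alone (Hdac3fl/fl). Both genotypes received tamoxifen intraperitoneally for 5 days and cells were sorted 7 days later, so tamoxifen exposure is shared by all groups and Cre activity differs with genotype. The labels give no age. LMPPs were sorted as the Flt3+ CD34+ cells of the lineage-negative Sca-1+ CD117+ fraction, and CDPs as lineage-negative CD117-intermediate Flt3+ CD127- CD11c- CD115- cells. No source states whether the 2 libraries of a group came from different mice, so p-values measure only the spread between these libraries, which may be technical.

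LMPPs are early bone marrow progenitors that keep lymphoid and myeloid potential and have largely lost the potential for megakaryocytes and red cells. CDPs stand further along the route to dendritic cells, and the CD115- fraction is known for its bias toward plasmacytoid dendritic cells (pDCs), the type I interferon producers, while CDPs also give rise to conventional dendritic cells (cDCs). HDAC3 removes acetyl groups from histones and is the enzyme of the corepressor complexes built on NCoR and SMRT. The step from LMPP to CDP is normally marked by loss of stem cell genes and gain of dendritic cell regulators such as *Irf8*.

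Values are FPKM, in which fragments are scaled to transcript length and to the size of the library, rescaled so that the 14099 genes shared by both tables summed to 570746 in each library. Differences are CDP minus LMPP on the log2(FPKM + 0.5) scale, which understates the change of genes with low values. LMPP and CDP values stand in separate tables that were made separately, so a difference between the stages and a difference between the tables cannot be told apart. CDP library 2 stood apart from the rest. It had 10677 shared genes above 0 FPKM, against 12546 to 13097 in the other 7 libraries, and its 10 most abundant genes held 11.5% of the total, against 6.19% to 7.74%. The HDAC3-deficient CDP libraries correlated at r = 0.93 across genes on the log2 scale and the HDAC3-deficient LMPP libraries at r = 0.99, and the median SD per gene was 0.48 in the former and 0.22 in the latter (log2 units, n = 2 each). FPKM carries no read totals, so depth is unknown.

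*Hdac3* was read first. It was at 16.6 and 8.59 FPKM in the HDAC3-deficient LMPPs and at 12.2 and 0.991 FPKM in the HDAC3-deficient CDPs, below all 4 controls, which were at 55.7 and 68.1 in LMPPs and 59.4 and 42 in CDPs. The 2 deficient populations overlapped (log2 difference −1.52, SE 0.93; limma with Benjamini-Hochberg adjustment, adjusted p = 0.48). The lowest value was that of CDP library 2. FPKM per gene also counts transcripts that lack the floxed part, and measures no protein. Of the 9 genes of the HDAC3 complex and class I deacetylases, 0 were separated by 2-fold or called. Among all tested genes 6.21% were separated upward and 1.19% downward, and 0.589% were called higher and 0.108% lower. Without overlap 4 of the 9 (*Ncor1*, *Tbl1xr1*, *Gps2* and *Hdac2*) were higher in CDPs and 0 lower. The shares of all tested genes were 32.8% and 15.8%. The genes behind the sort gates are no finding between the populations. *Il7r*, which encodes CD127, was at 0.0197 and 0 FPKM in LMPPs and 1.66 and 2.93 in CDPs although CDPs were sorted as CD127-, and *Itgax*, which encodes CD11c, was at 1.47 and 0.975 against 8.18 and 6.26. *Csf1r*, which encodes CD115, was at 18 and 10.9 against 65.4 and 22.9. Of the markers used for LMPPs, *Kit* was at 86.2 and 58.8 against 34.7 and 17.8 FPKM and *Cd34* at 569.5 and 455 against 242 and 262, while *Flt3* (309 and 272 against 337 and 232) and *Ly6a*, which encodes Sca-1 (98 and 101 against 128 and 84.9), overlapped. Of the markers of other cells with a row in both tables, 3 of 11 B cell genes, 1 of 8 T and NK cell genes and 2 of 9 stroma and endothelium genes reached 1 FPKM in 2 of the 4 libraries. *Ms4a1*, *Ebf1*, *Cd3e* and *Col1a1*, which define these cells, stayed below 0.5 FPKM in all 4 libraries. Other members did not. *Vpreb1*, of the B cell list, was at 1.18 and 1.66 FPKM in LMPPs and 1.55 and 0 in CDPs. *Cd79b*, a B cell receptor subunit, was at 46.5 and 43.4 FPKM in LMPPs and 73.3 and 112 in CDPs, and *Pecam1*, an endothelial adhesion molecule that blood cells also carry, at 47.8 and 33.8 against 80.01 and 63.8. Neither was called (limma, adjusted p = 0.23 and 0.32), and the part of other cells in the results was not tested.

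Without HDAC3, genes higher in CDPs outnumbered genes lower in CDPs. Of 10192 tested genes, 633 (6.21%) had both CDP libraries at least 2-fold above both LMPP libraries, and 121 (1.19%) had them at least 2-fold below. In this text a gene is called separated when it meets that rule, which is a description and not a test. Genes were tested if they reached 1 FPKM in 2 of the 4 libraries. A gene below that value in both libraries of one population was tested only if both libraries of the other reached it. Its direction was then fixed by this filter. Counting also smaller gaps, 3346 genes (32.8%) were higher in both CDP libraries than in both LMPP libraries, and 1612 (15.8%) were lower. In controls, 904 of 10823 genes (8.35%) were separated upward and 704 (6.5%) downward. Limma called 60 genes higher (0.589%) and 11 lower (0.108%) without HDAC3, all 71 of them separated, and called 2494 higher (23%) and 2095 lower (19.4%) in controls. At an unadjusted p under 0.05, 1159 genes were higher and 363 lower without HDAC3.

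The split between the directions and the number of calls both depended on the scaling. The median difference of all tested genes was 0.17 with equal totals, 0.01 with FPKM as deposited, −0.09 with median-ratio scaling and −0.05 after quantile normalization. The share of separated genes that were higher in CDPs was 84% with equal totals, 79.3% as deposited, 71.2% with median-ratio scaling and 62.8% after quantile normalization. Of the 29 called genes that the naming rule chose, 26 lost the call with FPKM as deposited, 26 with median-ratio scaling, and all 29 after quantile normalization or without the filter on low values. A pseudocount of 0.1 ended 15 of these calls, a fit without trend ended 20, and robust moderation ended that of *Ier3*. *Ly6d*, *Naip7* and *Zfp511* kept the call with FPKM as deposited and with median-ratio scaling. None of these 29 genes changed direction in any alternative, while 9 named genes that were not called did. Leaving out CDP library 2 gave 902 genes called higher and 240 lower, with the remaining CDP library assumed to vary like the LMPP libraries.

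Some of the stage differences seen in controls were separated without HDAC3 too, in both directions. Of the 904 genes separated upward in controls, 398 (44.0%) were separated in the same direction without HDAC3, which is 62.9% of the 633. Another 279 did not overlap but lay less than 2-fold apart, 76 overlapped, 149 were not tested, and 2 lay in the opposite direction without overlap. Of the 704 genes separated downward in controls, 89 (12.6%) were separated in the same direction without HDAC3, which is 73.6% of the 121. Another 239 did not overlap, 227 overlapped, 120 were not tested and 29 lay in the opposite direction. The median difference of the upward genes was 1.89 in controls and 1.54 without HDAC3. That of the downward genes was −1.86 in controls and −0.76 without HDAC3, at −0.52 for CDP library 1 alone and −0.98 for CDP library 2 alone. With the other scalings the upward share was 41.6%, 38.5% and 35.6% and the downward share 14.4%, 17.9% and 21.6%, with FPKM as deposited, median-ratio scaling and quantile normalization in turn. The 2 shares were not tested against each other. Genes chosen by the values of one set of libraries tend to be less extreme in another set, in either direction, and this applies to both medians. The plot of control genes by their fate shows the counts.

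**Figure D1:**
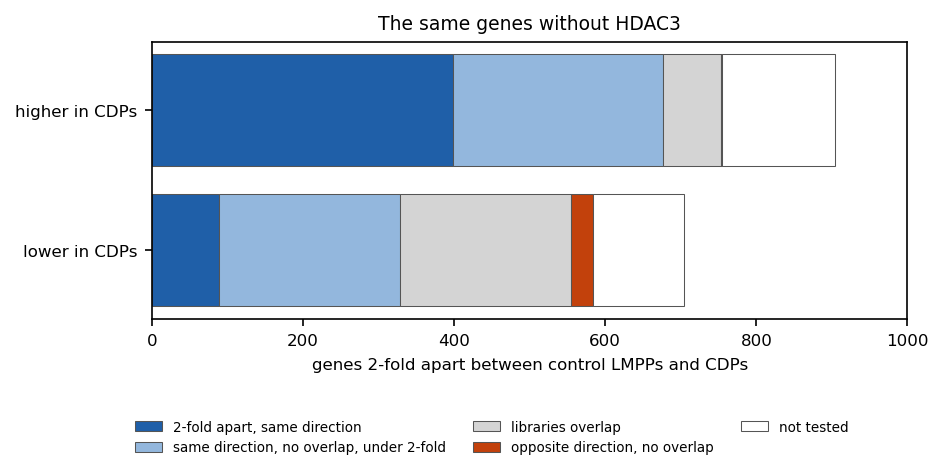
Genes separated by 2-fold between control LMPPs and control CDPs, divided by how they stood between the HDAC3-deficient populations; the x axis counts genes, and the bars are the 904 genes higher and the 704 genes lower in control CDPs. The segment separated by 2-fold in the same direction holds 398 genes in the upper bar and 89 in the lower bar.

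Across the 10094 genes tested in both genotypes, the stage difference without HDAC3 and that in controls had Pearson r = 0.70 and Spearman rho = 0.63. With CDP library 1 as the only deficient CDP library r was 0.74, and with CDP library 2 it was 0.53. Genes are not independent replicates, and both differences are taken across the same 2 tables, so an offset between the tables would enter both.

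**Figure D2:**
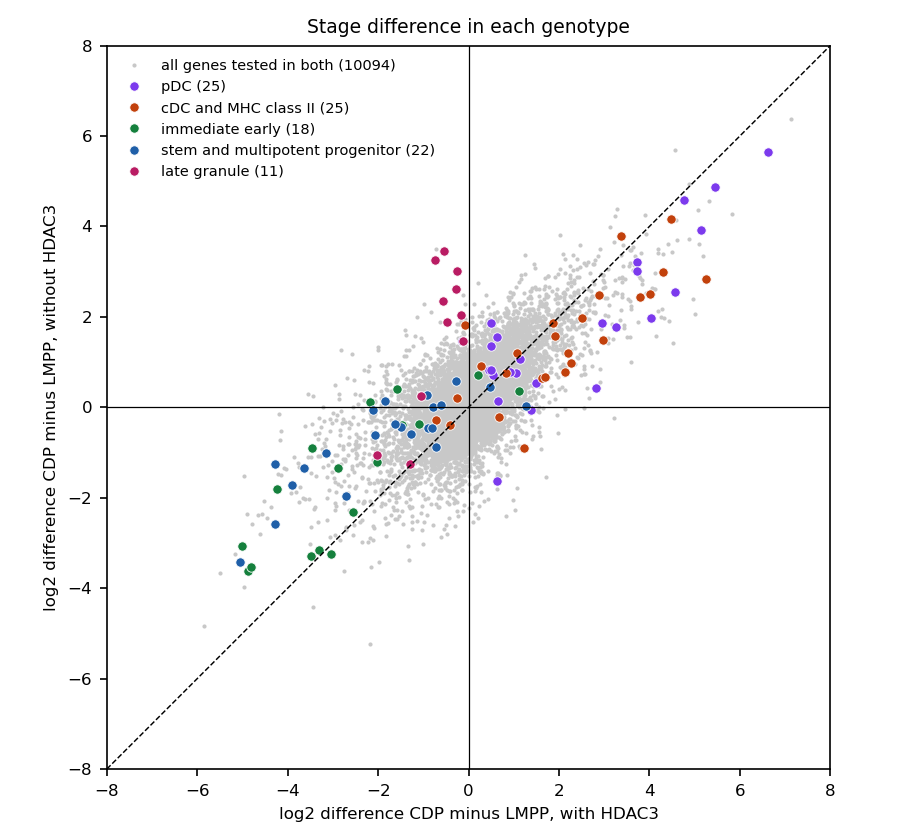
Each point is a gene tested in both genotypes, with the log2 difference CDP minus LMPP in controls on the x axis and the same difference without HDAC3 on the y axis. Many dendritic cell genes lie in the upper right, such as *Ly6d* at 6.62 and 5.64. Others do not, such as *Il3ra* at 0.62 and −1.63 and *Bst2* at 1.39 and −0.07, which lie in the lower right. *Fos*, an immediate early gene, lies in the lower left at −4.89 and −3.61. *Chil3*, a late granule gene, lies in the upper left at −0.54 and 3.46.

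Some surface and effector genes of pDCs were among the clearest stage differences that remained. Of the 27 genes listed, 15 were tested, and 6 were separated upward and called. Another 5 lay higher without overlap but less than 2-fold apart, and 4 overlapped. Among all tested genes 6.21% were separated upward and 0.589% called higher. Separated genes included, 32.8% of all tested genes were higher without overlap. The median difference of the 15 was 1.76, against 0.17 for all tested genes. *Siglech*, *Ly6d* and *Upb1* passed the filter through the CDPs alone, so their direction was fixed by it. Listed genes too low to pass are not in that median. In controls 22 were tested, 14 were separated upward and the median was 2.11. Of those 14, the same 6 were separated without HDAC3, 4 were not tested, and *Bst2*, *Ly6c1*, *Ly6c2* and *Plac8* were not separated. The 4 were *Pacsin1*, *Cd209a*, *Atp1b1* and *Ptprf*, at log2 differences of 1.18, −0.38, −0.37 and −0.28 without HDAC3. In controls these were 1.89, 2.84, 3.07 and 2.33. The control median includes these 4 and the median of 1.76 does not, so the 2 medians cover different members. In bulk RNA, fewer cells of a type and less RNA per cell cannot be told apart, here and in the gene groups that follow.

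*Ly6d* (chr15:74762056-74763567 in GRCm38.p6), which encodes a surface protein of pDC-biased and lymphoid progenitors, was at 0.266 and 0.157 FPKM in HDAC3-deficient LMPPs and at 31.6 and 38.4 FPKM in HDAC3-deficient CDPs. The CDP libraries stood far above the LMPP libraries (log2 difference 5.64, SE 0.54; limma, adjusted p = 0.012), and the controls ran from 5.82 and 4.22 in LMPPs to 589.6 and 488 in CDPs. *Siglech* (chr7:55768154-55779448), an endocytic receptor used as a pDC marker, was at 0.336 and 0.113 FPKM in LMPPs and 26 and 15.9 in CDPs. Its difference of 4.87 (SE 0.59; limma, adjusted p = 0.022) compares with 5.46 in controls, where CDPs were at 182 and 99 FPKM. Both genes were thus separated by stage in each genotype, and in each population both deficient libraries were below both controls.

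*Cd7*, a surface protein of lymphoid cells and pDC precursors, was at 6.21 and 2.36 FPKM in LMPPs and 117 and 92.4 in CDPs (log2 difference 4.58; limma, adjusted p = 0.017). *Pld4*, an endolysosomal nuclease, was at 50.7 and 34.1 against 346 and 329.7 FPKM (3.01; limma, adjusted p = 0.017). In control CDPs *Pld4* was at 391 and 263 FPKM, a range that holds both deficient CDP values. *Upb1*, an enzyme of pyrimidine breakdown, was at 0.0197 and 0.104 against 6.58 and 9.76 FPKM (3.93; limma, adjusted p = 0.035). *Cox6a2*, a cytochrome c oxidase subunit enriched in pDCs, was at 6.53 and 7.34 against 45.1 and 40.7 FPKM (2.54; limma, adjusted p = 0.035), and at 139 and 125 FPKM in control CDPs. Its stage difference in controls was 4.57, and the difference between the 2 stage differences, −2.03, did not pass the adjusted test (limma unadjusted p = 4.3e-04, adjusted p = 0.14).

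Other pDC surface genes showed the split between the 2 CDP libraries. *Ly6c2*, an Ly6 family surface protein, was at 128 and 28.7 FPKM in CDP libraries 1 and 2 against 16.8 and 18.2 in LMPPs, and at 611 and 483 in control CDPs. *Bst2*, which encodes the antigen PDCA-1, was at 178 and 92 FPKM in the CDPs on either side of the LMPP values of 124 and 146. *Il3ra*, the interleukin-3 receptor alpha chain, was at 15.1 and 0 FPKM in CDPs against 8.68 and 7.61 in LMPPs. Without CDP library 2, 9 of the 15 genes were separated upward in place of 6. *Plac8*, an abundant gene of pDCs and myeloid progenitors, was at 3802 and 3649 FPKM in LMPPs and 5839 and 5040.1 in CDPs, and at 1214 and 1305 and 3704 and 3399.8 in the respective controls.

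The tested transcription factors of the pDC lineage lay higher in CDPs. All 10 tested genes of the 11 listed were higher in both CDP libraries than in both LMPP libraries, against 32.8% of all tested genes. Of these 3 were separated, or 2 with FPKM as deposited or median-ratio scaling, and 0 were called by limma. The median difference was 1.27, against 1.04 over 11 tested in controls. *Cbfa2t3* was only just higher, at 9.74 and 6.37 against 19 and 9.78 FPKM. *Mycl*, the untested gene, was at 2.06 and 0 FPKM in deficient CDPs and 17.6 and 15.1 in control CDPs. *Irf8*, which is needed for pDC and cDC1 development, was at 163 and 119 FPKM in LMPPs and 872 and 339 in CDPs (log2 difference 1.96, SE 0.45; limma, adjusted p = 0.099). In controls it ran from 80.4 and 111 to 1733 and 1412 FPKM, a difference of 4.04. Deficient LMPPs were thus above control LMPPs and deficient CDPs below control CDPs, and the difference of the 2 differences was −2.07 (limma unadjusted p = 0.0061, adjusted p = 0.33).

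*Spib*, an Ets factor of pDCs, was at 0.118 and 0.165 FPKM in LMPPs and 7.84 and 3.81 in CDPs (3.22; limma, adjusted p = 0.069). It passed the filter through the CDPs alone. *Runx2*, which is involved in pDC exit from the bone marrow, was at 14.1 and 11.5 against 59.2 and 38.5 FPKM (1.87; limma, adjusted p = 0.081). *Tcf4*, which encodes the pDC master regulator E2-2, differed less, at 27.6 and 23.3 against 33.2 and 53.1 FPKM (0.72; limma, adjusted p = 0.42), and was at 45.1 and 46.3 and 59.5 and 74.1 FPKM in the controls. These 3 genes kept their order in each genotype, CDP above LMPP.

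**Figure D3:**
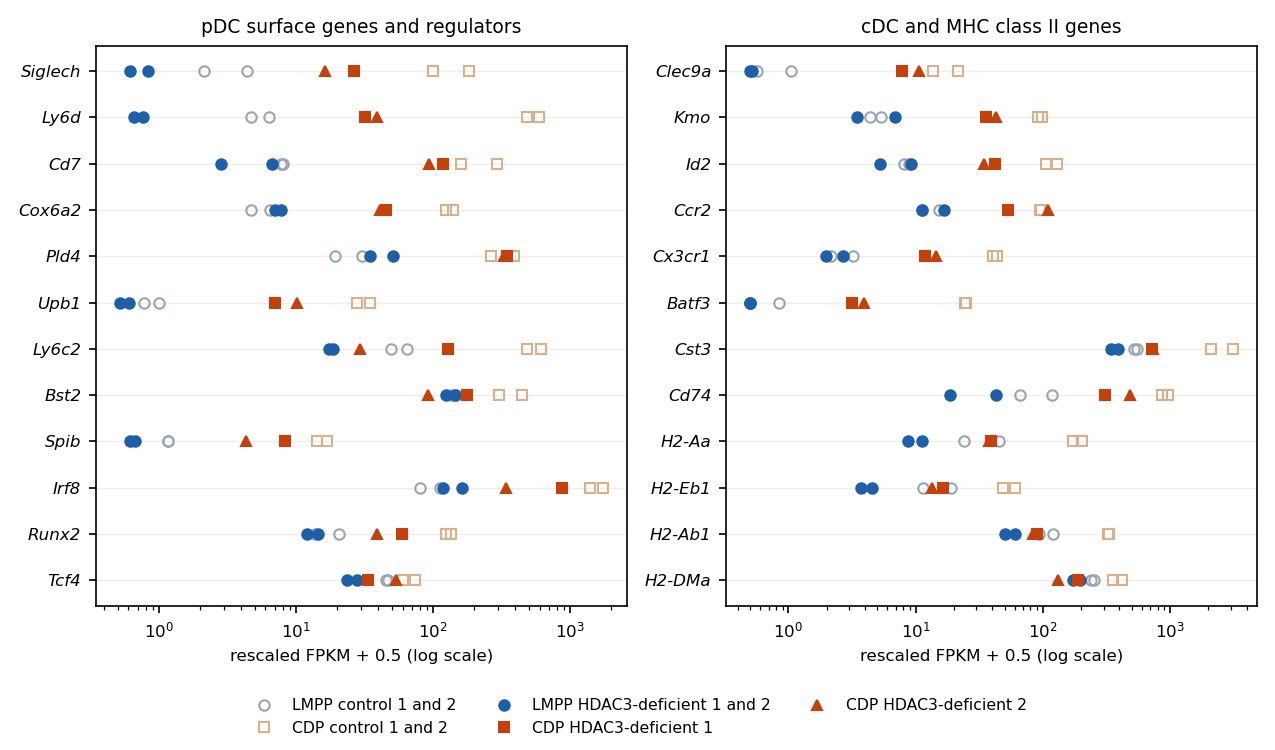
Rescaled FPKM + 0.5 on a log axis for genes of pDCs, cDCs and MHC class II, with 1 point per library for LMPPs and CDPs of each genotype. For *Ly6d*, *Siglech*, *Cd7* and *Clec9a* the HDAC3-deficient CDP points lie well to the right of the HDAC3-deficient LMPP points and to the left of the control CDP points.

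Genes of cDCs followed, with 16 of 25 tested, 7 separated upward, 2 of them called, 6 higher without overlap under 2-fold, and 3 overlapping. Among all tested genes 6.21% were separated upward, 0.589% called higher and, separated genes included, 32.8% higher without overlap. *Batf3*, *Clec9a* and *Cd80* passed the filter through the CDPs alone, so their direction was fixed by it. The median difference of the 16 was 1.69, and 2.21 over 19 tested in controls. Of 13 genes separated upward in controls, 6 were separated without HDAC3 and 3 were not tested there. *Clec9a*, the dead-cell receptor of cDC1s, was at 0 and 0.0174 FPKM in LMPPs and 7.32 and 10.1 in CDPs (4.16, SE 0.60; limma, adjusted p = 0.031). *Kmo*, an enzyme of tryptophan catabolism, was at 6.38 and 2.98 against 35.3 and 42 FPKM (2.99; limma, adjusted p = 0.041). Control CDPs were higher still for both, at 20.9 and 13.2 and at 98.6 and 91 FPKM.

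*Batf3*, a transcription factor needed for cDC1 development, was listed at 0 in both HDAC3-deficient LMPP libraries and at 2.68 and 3.46 FPKM in the CDPs, against 23.9 and 24.6 in control CDPs. *Id2*, an inhibitor of E proteins, was at 8.77 and 4.74 FPKM in LMPPs and 41.2 and 33.8 in CDPs (2.44; limma, adjusted p = 0.059), and at 106 and 129 in control CDPs. *Ccr2* and *Cx3cr1*, chemokine receptors of myeloid and dendritic precursors, were at 16.1 and 10.8 against 52.5 and 109 FPKM and at 2.19 and 1.46 against 11.3 and 13.9 FPKM. All 4 genes were separated by stage in both genotypes and were not called without HDAC3. *Cd80*, a costimulatory ligand, was separated without HDAC3 alone, at 0.0296 and 0 FPKM in LMPPs against 2.15 and 10.2 in CDPs, with control CDPs at 0.572 and 0 and too low to test. *Zbtb46*, *Zfp366* and *Cd83* did not reach 1 FPKM in 2 of the 4 libraries. *Zbtb46* was at 0.11 and 0.14 FPKM in deficient LMPPs and 0.75 and 3.32 in deficient CDPs. *Zfp366* was at 0 and 0 against 0.313 and 0. Both were separated upward in controls, where CDPs were at 4.49 and 5.18 and at 2.18 and 1.65 FPKM.

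Genes of MHC class II presentation were mostly higher in CDPs. Of 10 tested, 8 were higher without overlap and 3 of them separated, against 32.8% and 6.21% of all tested genes. *Cd74*, which encodes the invariant chain, was at 42.3 and 18.2 FPKM in LMPPs and 309 and 486 in CDPs (3.78, SE 0.44; limma, adjusted p = 0.022). *H2-Aa* was at 10.8 and 8.17 against 38.9 and 37.3 FPKM and *H2-Eb1* at 4.02 and 3.2 against 15.8 and 12.9, both class II chains that present antigen. The remaining tested members differed less. *H2-Ab1*, the partner chain of *H2-Aa*, was at 60.4 and 50.3 against 88.7 and 83.5 FPKM, while controls ran from 119 and 92.6 to 325 and 328. The median difference of the group was 0.85 without HDAC3 and 1.88 in controls, where 8 of 11 tested genes were separated upward, and 3 of those 8 were separated without HDAC3.

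Lymphoid priming genes also lay higher in CDPs, 9 of 10 tested without overlap and 3 separated, against 32.8% and 6.21% of all tested genes. The median was 1.39, against 0.99 over 11 tested in controls. None of the 10 was called by limma. *Ccr7*, a chemokine receptor, was at 14.9 and 8.08 FPKM in LMPPs and 62.6 and 39.5 in CDPs (2.13; limma, adjusted p = 0.081), and the control LMPPs were lower, at 1.35 and 3.61. *Satb1*, a chromatin organizer of lymphoid progenitors, was at 6.54 and 5.23 against 20.01 and 23.3 FPKM. *Ikzf1*, which encodes Ikaros, was at 41.8 and 24.2 against 108 and 95.1 FPKM (1.65; limma, adjusted p = 0.091). *Dntt*, the template-independent DNA polymerase of lymphoid progenitors, was at 319 and 199 against 697 and 453 FPKM, and *Notch1*, the receptor that drives T-lineage entry, at 15 and 11.5 against 84 and 25.4. Without CDP library 2, 6 of the 10 were separated. Of the 11 B cell genes with a row in both tables, 3 were tested, and *Blnk*, a B cell receptor adaptor that pDCs also express, was separated at 0.888 and 0.488 against 5.19 and 11.5 FPKM. Of the 8 such T and NK cell genes, *Klrk1*, an activating receptor, alone was tested, at 0.0691 and 0 against 2.7 and 8.6 FPKM.

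Of 21 tested cytokine receptor genes 3 were separated upward, against 6.21% of all tested genes. The list median was 0.66, against 0.63 over 24 tested in controls. *Il6st*, the shared signalling chain gp130, was at 5.24 and 3.41 FPKM in LMPPs and 42.6 and 30.2 in CDPs (2.94, SE 0.46; limma, adjusted p = 0.036), and 6.23 and 8.56 against 56.3 and 62.2 in controls. *Cxcr4*, the receptor that retains cells in bone marrow, was at 12 and 9.47 against 35.4 and 33.8 FPKM. *Csf2rb2*, a beta chain for interleukin-3, was at 2.13 and 1.03 against 15.9 and 5.49 FPKM. *Csf3r*, the granulocyte colony-stimulating factor receptor, lay the other way, at 46.8 and 38.8 against 31.6 and 9.88 FPKM (limma, adjusted p = 0.33). Among 7 tested monocyte and macrophage genes *Lgals3*, which encodes galectin-3, was called higher in CDPs at 1.76 and 0.522 against 18.8 and 14.9 FPKM (3.50; limma, adjusted p = 0.049), and *Ccr1*, a chemokine receptor, was separated at 2.66 and 0.975 against 8.22 and 7.91. *Lgals3* lost its call without LMPP library 2, as did *Clec9a*, *Kmo*, *Cox6a2* and *Il6st*, and *Cox6a2* lost it also without LMPP library 1.

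In the other direction, immediate early genes, which are transcribed within minutes of a stimulus and respond also to cell handling, included members that fell. Of 24 listed, 18 were tested, 6 were separated downward and 3 of these were called. Another 3 were lower without overlap, 2 were higher without overlap and 7 overlapped. Among all tested genes 1.19% were separated downward and 0.108% called lower. Separated genes included, 15.8% of all tested genes were lower and 32.8% higher without overlap. The list median was −1.28 with both CDP libraries and −0.71 without CDP library 2, and −2.37 in controls. *Fos*, a subunit of AP-1, was at 662 and 329 FPKM in HDAC3-deficient LMPPs and 54.9 and 25.8 in HDAC3-deficient CDPs (−3.61, SE 0.46; limma, adjusted p = 0.025). *Dusp1*, a phosphatase that turns off MAP kinases, was at 234 and 134 against 29.5 and 14.6 FPKM (−3.06, SE 0.44; limma, adjusted p = 0.031). *Ier3*, a stress-response gene, was at 119.5 and 76.2 against 14.9 and 3.9 FPKM (−3.54, SE 0.59; limma, adjusted p = 0.044).

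The 3 called genes were also separated in controls, where LMPPs were at 2313 and 2709.9 FPKM for *Fos*, 927 and 954 for *Dusp1* and 79.2 and 112 for *Ier3*. Control CDPs were at 101 and 70.3, 35.2 and 23.4 and 5.32 and 1.47 FPKM. *Zfp36*, an RNA-binding protein that speeds mRNA decay, was separated and not called, at 598 and 333 against 101 and 23.9 FPKM (limma, adjusted p = 0.067). *Junb*, another AP-1 subunit, was at 189.7 and 132 against 39.6 and 6.57 FPKM (limma, adjusted p = 0.086), and *Dusp2*, a nuclear MAP kinase phosphatase, at 155 and 115 against 48.1 and 14.4. CDP library 2 was the lower of the 2 CDP libraries for all 6 genes. *Jun*, separated in controls at 590.2 and 704 against 98.7 and 75.2 FPKM, overlapped without HDAC3 at 78.9 and 45.4 against 60.4 and 8.83. *Egr1*, a serum-response transcription factor, was at 18.9 and 8.89 against 4.62 and 2.38 FPKM without HDAC3 and 185 and 245 against 10.4 and 11.2 in controls. *Myc* was at 562 and 401 against 409 and 323 FPKM and overlapped. With the other scalings 9, 9 and 8 of the 18 were separated downward in place of 6.

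The 3 called genes are shown by the 250 bases before their RefSeq start, in GRCm38.p6, because these genes were lower together and many immediate early promoters carry a cyclic AMP response element. The letters searched were TGACG on both strands, the core of that element, printed in capitals. *Fos* (gene at chr12:85473890-85477274, plus strand; window chr12:85473640-85473889) has matches at 129 to 125 and 66 to 62 bases before the start. *Dusp1* (gene at chr17:26505591-26508472, minus strand; window chr17:26508473-26508722) has them at 191 to 187, at 143 to 139 and, on the other strand and overlapping the last, at 140 to 136, so that those 2 form the palindrome TGACGTCA. *Ier3* (gene at chr17:35821713-35822911, plus strand; window chr17:35821463-35821712) has 0 matches in its window.
Fos: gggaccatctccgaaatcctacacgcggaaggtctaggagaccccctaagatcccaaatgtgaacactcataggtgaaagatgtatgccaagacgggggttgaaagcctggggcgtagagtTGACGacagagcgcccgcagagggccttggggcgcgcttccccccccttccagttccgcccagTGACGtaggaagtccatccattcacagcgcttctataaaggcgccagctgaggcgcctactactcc
Dusp1: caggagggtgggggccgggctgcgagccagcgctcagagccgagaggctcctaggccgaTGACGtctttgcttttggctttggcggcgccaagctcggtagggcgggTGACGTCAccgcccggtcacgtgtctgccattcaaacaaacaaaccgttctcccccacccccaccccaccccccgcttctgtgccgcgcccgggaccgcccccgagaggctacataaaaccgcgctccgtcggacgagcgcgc
Ier3: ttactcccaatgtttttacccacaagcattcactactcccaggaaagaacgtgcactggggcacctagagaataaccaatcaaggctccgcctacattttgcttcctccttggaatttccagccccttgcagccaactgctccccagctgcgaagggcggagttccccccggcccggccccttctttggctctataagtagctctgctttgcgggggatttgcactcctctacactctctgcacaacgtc
TGACG was present in 5836 of 32851 promoter windows of that length (17.8%), in 2928 of 10595 windows of tested genes (27.6%), and in 9 of 17 windows of tested immediate early genes (52.9%). TGACGTCA was present in 508 of all windows (1.55%), in 282 of those of tested genes (2.66%) and in 3 of the 17 (17.6%). A match is a description of the letters and not of a bound site, and a gene may have several windows.

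Of 26 listed stem and multipotent progenitor genes 22 were tested, 4 were separated downward in CDPs, 7 more were lower without overlap, 2 were higher and 9 overlapped. Of all tested genes 1.19% were separated downward and 15.8% were lower without overlap. In controls 14 of the 25 tested list members were separated downward. The list median was −1.63 in controls and −0.46 without HDAC3. The 4 separated genes had all been separated in controls, and 0 were called by limma. *Esam*, an adhesion molecule of primitive progenitors, was at 3.29 and 3.3 FPKM in LMPPs and 0.303 and 0 in CDPs (−2.58, SE 0.63; limma, adjusted p = 0.11), and at 7.58 and 13.1 in control LMPPs. *Hmga2*, a chromatin protein of fetal and stem cells, was at 2.6 and 2.18 against 0.182 and 0.309. *Procr*, the endothelial protein C receptor that marks stem cells, was at 6.51 and 6.74 against 2.22 and 2.82 FPKM.

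Several transcription factor genes overlapped between the deficient populations. *Meis1*, a homeobox cofactor, was at 29.6 and 22.3 FPKM in LMPPs and 25.3 and 31.9 in CDPs without HDAC3, and at 73.2 and 71.8 against 17.6 and 22.4 in controls. *Mecom*, which encodes EVI1, was at 4.88 and 2.9 against 2.72 and 4.68 FPKM without HDAC3 and 12.2 and 16.2 against 2.4 and 3.41 in controls. *Hoxa9* was at 26.4 and 18.5 against 22.7 and 31.9 FPKM and overlapped. The differences between the stage differences were 1.99 for *Meis1* and 3.03 for *Procr* (limma unadjusted p = 4.4e-04 and 3.7e-04, adjusted p = 0.14 and 0.13), and did not pass the adjusted test. For both genes the deficient LMPPs were below the control LMPPs and the deficient CDPs above the control CDPs. *Hlf*, a regulator of stem cell quiescence, kept its order, at 5.27 and 4.89 against 2.27 and 2.28 FPKM, just under 2-fold apart on the log2 scale used.

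Of 14 listed megakaryocyte and platelet genes 11 had a row in both tables, 5 were tested and 1 was separated downward, against 1.19% of all tested genes. *Pf4*, a platelet chemokine, was at 3.41 and 1.42 FPKM in LMPPs and listed at 0 in both CDP libraries. *Selp*, the platelet adhesion receptor P-selectin, was at 5.23 and 3.78 against 5.83 and 5.3 FPKM without HDAC3 and at 9.43 and 11.8 against 0.245 and 0.70 in controls, with a difference of the stage differences of 3.84 (SE 0.57; limma unadjusted p = 9.8e-05, adjusted p = 0.071). The median of the 5 was −1.22, −0.48 without CDP library 2, and −3.52 in controls over 8 tested genes. Of 16 listed erythroid genes 14 had a row in both tables, 9 were tested, 5 were lower without overlap and 2 of these were separated, with a median of −1.66 and −1.11 without CDP library 2. *Hbb-bs*, an adult beta globin, was at 17.1 and 45.6 FPKM in LMPPs and 5.85 and 3.07 in CDPs, and at 2655 and 41.4 in the 2 control LMPP libraries, the first of which held far more globin than any other. Globin genes are near-identical copies whose reads the counting may have split. *Ahsp*, the alpha globin chaperone, was at 3.28 and 6.01 FPKM in LMPPs and listed at 0 in both CDP libraries, and *Car2*, a carbonic anhydrase of erythroid and other progenitors, was at 203 and 134 against 79.1 and 153 FPKM, against 376 and 396 and 27.6 and 47 in controls. The 3 tested mast cell and basophil genes and the 2 tested stroma and endothelium genes held 0 separated. *Mcpt8*, a basophil protease, was at 35.2 and 24.9 against 17 and 24.5 FPKM.

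Primary granule and granulocyte-monocyte progenitor genes, made in early progenitors, did not separate as a group. Of 20 tested, 2 were separated upward and 8 were lower without overlap, against 6.21% and 15.8% of all tested genes. The list median was −0.16. In controls 7 were separated downward with a median of −1.03, and 0 of those 7 were separated without HDAC3. *Mpo*, myeloperoxidase, was at 2483 and 2369.9 FPKM in LMPPs and 1729 and 1506 in CDPs without HDAC3, and at 1128 and 1431 against 579 and 787 in controls. *Ctsg*, cathepsin G, was at 1192 and 1265 against 837 and 695 FPKM, and 364 and 494 against 212 and 213 in controls. Both were higher in LMPPs without overlap (log2 differences −0.59 and −0.69; limma, adjusted p = 0.42 and 0.34). *Ms4a3*, a marker of granulocyte-monocyte progenitors, was at 63.6 and 91.3 against 109.8 and 39.6 FPKM and overlapped, and *Elane*, neutrophil elastase, was at 107 and 113 against 255 and 138. *F13a1*, a coagulation factor made by monocytes, was called higher in CDPs, at 47.7 and 35.2 against 233 and 263 FPKM (2.58, SE 0.31; limma, adjusted p = 0.022), and lost the call without LMPP library 2.

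*Lyz2*, myeloid lysozyme, lay in opposite directions in the 2 genotypes. It was at 232 and 182 FPKM in HDAC3-deficient LMPPs and 512 and 476 in HDAC3-deficient CDPs, but at 534 and 517 in control LMPPs and 195 and 86.6 in control CDPs. The stage differences were 1.26 and −2.01, and the difference between them was 3.27 (SE 0.48; limma unadjusted p = 9.5e-05, adjusted p = 0.071). *Lyz2* has a near-identical neighbour, *Lyz1*, so its reads are uncertain. Of the 633 genes separated upward without HDAC3, 5 lay in the opposite direction in controls without overlap, the others being *Hspa1b*, *Ccl5*, *Tmem154* and *Bnip5*. *Ccl5*, a chemokine, was at 5.02 and 5.18 against 16.1 and 16.6 FPKM without HDAC3 and 12.4 and 7.93 against 3.27 and 3.72 in controls. Of the 121 genes separated downward, 0 lay in the opposite direction in controls.

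Late granule and mature neutrophil genes, made late in neutrophil maturation, lay higher in deficient CDPs. Of 12 tested, 7 were separated upward with every scaling, 0 were called by limma, and 1 more was higher and 1 lower without overlap. Among all tested genes, with equal totals, 6.21% were separated upward. Separated genes included, 32.8% of all tested genes were higher and 15.8% lower without overlap. The list median was 2.19, the highest of the lists with 5 or more tested genes. In controls 0 of 14 were separated upward and the median was −0.52, and 7 members had an unadjusted p under 0.05 for the difference between the stage differences, with 0 passing after adjustment. *Chil3*, a chitinase-like protein of neutrophil precursors, was at 5.45 and 0.897 FPKM in LMPPs and 39.6 and 24.6 in CDPs (3.46, SE 0.71; limma, adjusted p = 0.075). *S100a9*, a subunit of calprotectin, was at 9.22 and 1.9 against 40.1 and 52.3 FPKM (3.26; limma, adjusted p = 0.070), and *Ngp*, a neutrophilic granule protein, at 6.76 and 1.79 against 37.3 and 28.2 (3.01; limma, adjusted p = 0.072). In controls *S100a9* was at 108 and 93.2 in LMPPs and 113 and 31.3 in CDPs. *Stfa1*, a stefin, was listed at 0 in both deficient LMPP libraries and all 4 controls and was at 3.2 and 5.75 FPKM in the deficient CDPs. It is among the 7 separated genes and passed the filter through the CDPs alone.

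The summed FPKM of the 16 listed late granule genes was 60.5 and 26.3 in HDAC3-deficient LMPPs and 286 and 172 in HDAC3-deficient CDPs. In controls it was 657 and 481 in LMPPs and 621 and 241 in CDPs. Both deficient populations thus held less of this RNA than control LMPPs, and the deficient LMPPs held the least of all groups. *Mmp8*, *Mmp9* and *Ly6g*, which mark mature neutrophils, reached 1 FPKM in CDP library 1 alone of the 4 deficient libraries. The part of RNA from mature neutrophils in these values was not tested.

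**Figure D4:**
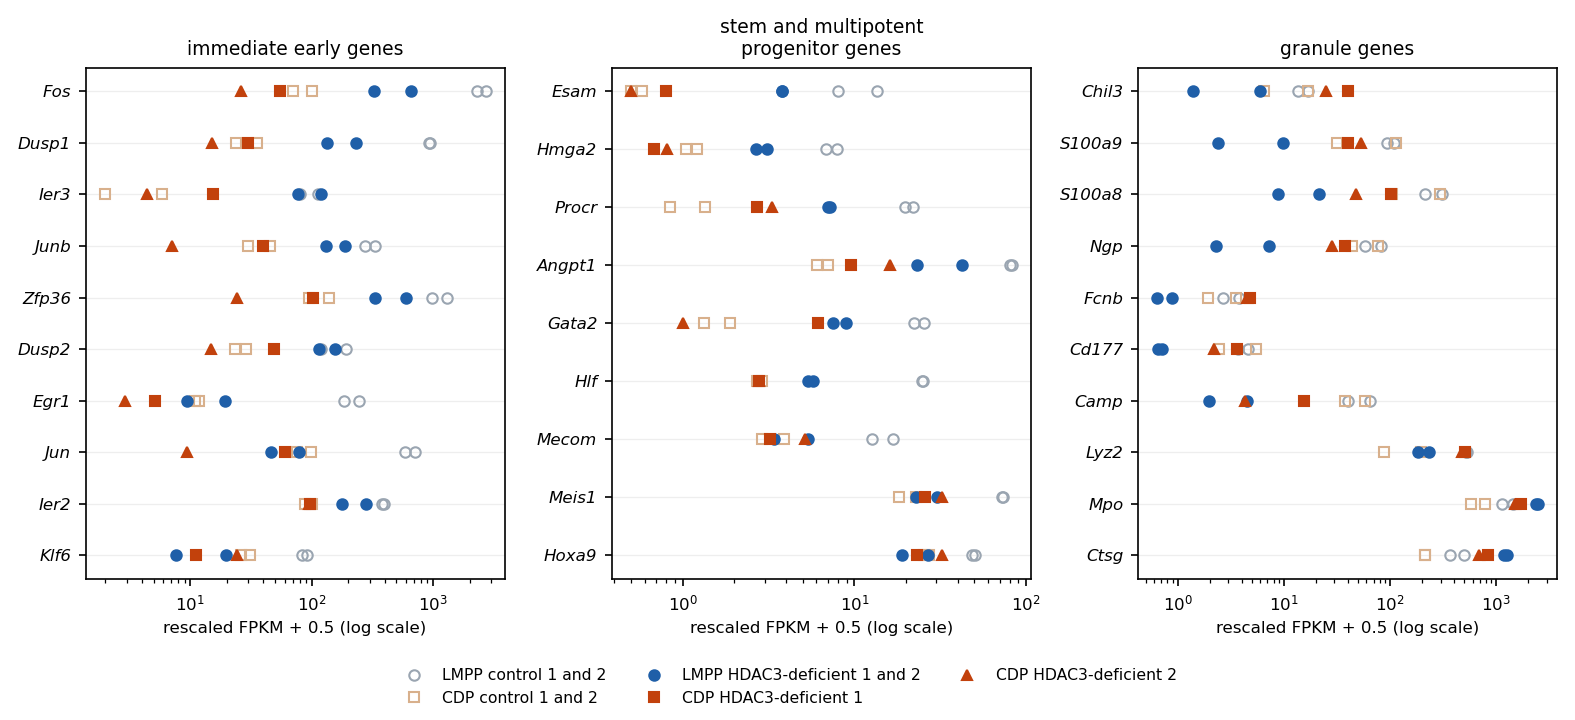
Rescaled FPKM + 0.5 on a log axis for immediate early, stem cell and granule genes, with 1 point per library for LMPPs and CDPs of each genotype. *Fos*, *Dusp1* and *Ier3* have their LMPP points to the right of their CDP points in both genotypes, while *S100a9*, *Ngp* and *Chil3* have both deficient LMPP points to the left of every other point.

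Of 30 S phase genes and 25 mitosis genes 0 were separated, against 6.21% upward and 1.19% downward of all tested genes. Without overlap 6 S phase genes were higher and 3 lower, and 5 mitosis genes were higher and 6 lower. The shares of all tested genes were 32.8% higher and 15.8% lower. The list medians were 0.14 for S phase and −0.10 for mitosis, against 0.52 and 0.28 in controls. The sign of the S phase median depended on the scaling. *Mki67*, a proliferation antigen, was at 15.1 and 8.12 FPKM in LMPPs and 20.3 and 67.1 in CDPs, without overlap. Of 9 tested CDK inhibitor and G1 genes 0 were separated, against 6.21% upward and 1.19% downward of all tested genes. *Cdkn1a*, which encodes the CDK inhibitor p21, was at 91.9 and 72.3 FPKM in LMPPs and 159 and 151 in CDPs, and *Cdk6*, a G1 kinase, at 103 and 90.4 against 163 and 446. Among 10 tested myeloid regulators *Id1* and *Id3*, inhibitors of E proteins, were separated downward, at 5.58 and 3.89 against 0.566 and 0 FPKM and 6.0 and 4.8 against 0.616 and 0. *Spi1*, which encodes PU.1, was at 220.0 and 201 against 295 and 146 FPKM and overlapped.

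Of 30 cytoplasmic ribosomal protein genes 23 were lower in CDPs and 3 higher without overlap, against 15.8% and 32.8% of all tested genes. The median was −0.65 without HDAC3, −0.36 without CDP library 2 and −0.61 in controls. *Rps6* and *Rpl5* were separated upward, against 6.21% of all tested genes. *Rps6* was at 403 and 380.4 against 1302 and 1031 FPKM and *Rpl5* at 33.7 and 36.4 against 79.9 and 116. Ribosomal protein genes have many processed copies in the genome whose reads may be shared. Of 22 tested interferon-stimulated genes *Ifit3* and *Oas2*, antiviral effectors, were separated upward, against 6.21% of all tested genes. They were at 1.18 and 0.958 against 3.33 and 14.7 and 2.71 and 2.32 against 26.6 and 6.14 FPKM, and the list median was 0.28. The number separated upward was 1 with FPKM as deposited, 1 with median-ratio scaling and 0 after quantile normalization. Of 13 tested heat shock genes *Hspa1b*, an inducible HSP70, was called higher in CDPs at 0.464 and 0.139 against 7.84 and 9.04 FPKM (3.51; limma, adjusted p = 0.048), while controls were at 13.2 and 14.5 and 7.19 and 9.2. Its call was lost without either LMPP library and with a filter of 5 FPKM. Its near-identical copy *Hspa1a* was at 29.7 and 12.8 against 72.7 and 31.3 FPKM, and reads may be split between them. Of 19 replication-dependent histone genes 0 were separated, against 6.21% upward and 1.19% downward of all tested genes. The plot of list medians sets these groups side by side.

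**Figure D5:**
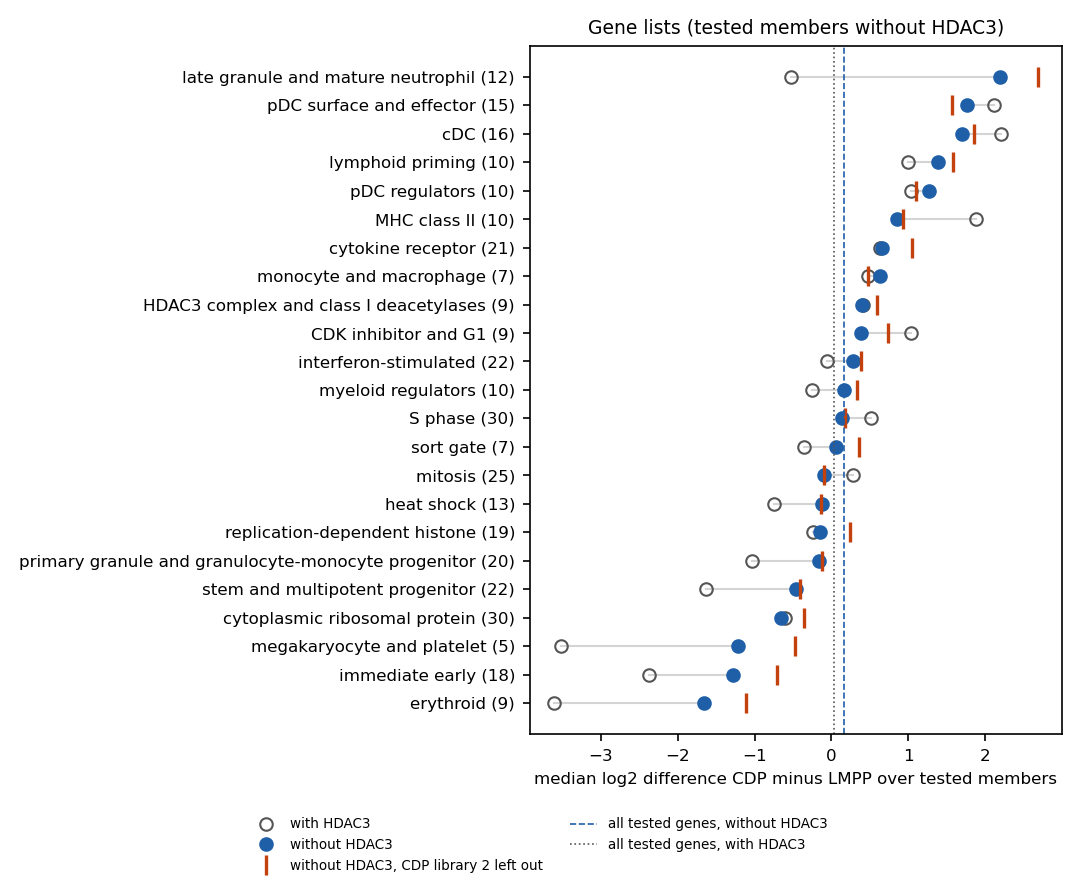
Median log2 difference CDP minus LMPP over the tested members of each gene list with 5 or more tested genes, without HDAC3 (filled), in controls (open, over the members tested there) and without HDAC3 after leaving out CDP library 2 (tick), with dashed and dotted lines at the medians of all tested genes. The late granule list stands at −0.52 in controls and 2.19 without HDAC3. The pDC surface list stands at 2.11 over 22 members in controls and 1.76 over 15 without HDAC3.

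By size, the called differences were led by genes of varied function. *Naip7*, a copy of a NAIP gene of the inflammasome whose reads other copies may share, was at 0.237 and 0.244 FPKM in LMPPs and 54.6 and 68.7 in CDPs (6.38, SE 0.51; limma, adjusted p = 0.0076). *Rpgrip1*, a ciliary protein, was at 3.57 and 2.22 against 63.9 and 457 FPKM. *Cmah*, which makes the sialic acid Neu5Gc, was at 2.33 and 1.25 against 33.1 and 64.7 FPKM. *Sap25*, a Sin3 complex protein, was at 0.513 and 0 against 21.6 and 9.2. Each was separated in the same direction in controls.

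*Adnp*, a homeobox protein of chromatin, *Ryr1*, a calcium release channel, and *Cd22*, a sialic acid receptor of B cells, were below 0.5 FPKM in all 4 LMPP libraries and at least 5 FPKM in all 4 CDP libraries, whatever the genotype. *Adnp* was at 0 and 0.0871 against 12 and 21.4 FPKM, *Ryr1* at 0.108 and 0.0348 against 16.5 and 10.1 and *Cd22* at 0.0296 and 0.209 against 15.8 and 8.22 without HDAC3. *H60b*, *Mid1* and *Zfp91* had the same pattern, and *Gm45929* and *H2-T9* had the reverse. For these 8 genes in particular, a difference between the 2 tables and one between the stages cannot be told apart. Among 14099 shared genes 467 were listed at 0 throughout one of the tables, and leaving these out kept the numbers of calls at 60 and 11.

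Of the called genes lower in CDPs, *Zfp511*, a zinc finger gene, was at 18.3 and 18.5 FPKM in deficient LMPPs and listed at 0 in both deficient CDP libraries, and at 3.32 and 5.61 in control CDPs. *Rpl36a*, a ribosomal protein gene, was at 878 and 1218 against 179.5 and 103 FPKM and *Timm23*, a subunit of the mitochondrial import channel, at 281 and 311 against 30.5 and 56.3. *H2-T9*, a class Ib gene, was at 17.1 and 15.3 against 0.111 and 0.064, *Gm45929* at 9.51 and 7.01 against 0.0505 and 0.0533, *Gm5148* at 20.3 and 30.3 against 2.06 and 1.15 and *4930404N11Rik* at 17.3 and 15.5 against 1.5 and 0.736 FPKM. All 11 called lower genes, and 58 of the 60 called higher, were also separated in the same direction in controls. Of the 121 genes separated downward 46 were listed at 0 in CDP library 2, and of all tested genes 433 were at 0 there, against 10 in CDP library 1 and 22 and 28 in the LMPP libraries.

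Whether the stage difference itself depended on HDAC3 was tested over 8 libraries as the difference between the 2 stage differences, from which an offset between tables that is equal in both genotypes drops out. Of 11032 genes 0 passed limma after adjustment (0%), 705 were higher and 254 lower at an unadjusted p under 0.05, and the smallest adjusted p was 0.064. *Hspa1b* shared that value with several other genes, at a difference of 4.24 (SE 0.52; unadjusted p = 2.6e-05). Among the genes that the naming rule chose, *Lyz2* and *Selp* followed, then *Hspa1a* at 4.10 (adjusted p = 0.081) and *Zfp511* (adjusted p = 0.12). Without CDP library 2 this limma test called 463 genes higher and 107 lower, and without CDP library 1 it called 1761 and 1765, the lone deficient CDP library being assumed to vary like the other groups. A gene that was separated in one genotype and not in the other, in the counts above, is therefore not shown to differ between genotypes.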

How the data were processed

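The values are FPKM per gene and library, which the authors deposited in 1 table for each population. Bowtie2, RSEM and mm10 are named in the submitters' processing notes, with versions and strand settings not given in the sources used here. Libraries were made by Illumina or BGI protocols, and which one applies to which table is not stated in them. The tables held 17445 and 16821 rows. They shared 14818 identifiers, of which 719 were numbered transcripts without a known gene and were set aside, since such numbers are not shared between tables. The remaining 14099 NCBI gene identifiers were joined.

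Genes that reached 1 FPKM in 2 or more libraries of a fit were compared as log2(FPKM + 0.5) with limma 3.58.1 (trend, no robust moderation) in R 4.3.3. Tests were two-sided with Benjamini-Hochberg adjustment over all tested genes and a threshold of 0.05. The procedure was run on simulated data in which each gene had the same spread in every group. That run therefore does not cover the wider spread of the deficient CDP libraries (median SD 0.48, against 0.22 in deficient LMPPs). Other steps used Python 3.11.15, pandas 2.3.3 and matplotlib 3.10.9. Promoters came from RefSeq (GRCm38.p6). Alternatives changed the scaling, pseudocount, filter, moderation and libraries.

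The comparison and the gene lists were chosen with earlier results of these data known. Named genes were the paper's progenitor and dendritic cell genes, sort-gate genes, the 10 largest calls in each direction, the 4 tested genes of lowest p in every list, and the 5 named genes with the smallest p for the difference between stage differences. Other genes in the text were chosen after their values were seen. Same-numbered libraries were not paired: their deviations from group means correlated at −0.13 without HDAC3 and −0.10 in controls. Some genes that the rule or the lists select are not reported here.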

Additional observations from a re-analysis of the deposited data

How the results depend on the processing

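None of the 29 called named genes changed direction in any alternative run. All 29 were separated, so leaving out 1 library could not reverse them. Of the other tested named genes 9 changed direction, in 14 values, 7 of them without CDP library 2. *Ly6a* went to −0.10 with FPKM as deposited and −0.20 with median-ratio scaling, and *Selp* to −0.14 after quantile normalization. Without 1 library the log2 difference ranged from −3.07 to 0.022 for *Hdac3*, from −2.98 to 0.0046 for *Gp9*, from −2.46 to 0.12 for *H2ac8*, from −1.93 to 0.10 for *Vpreb1*, from −0.93 to 0.52 for *Ms4a3*, from −0.53 to 0.49 for *Spi1*, from −0.32 to 0.21 for *Flt3* and from −0.23 to 0.36 for *Ly6a*. Genes under the filter without a library have no value there. The numbers of limma calls did not keep their size. Without HDAC3 the 60 higher and 11 lower calls became 4 and 1 with FPKM as deposited, 3 and 1 with median-ratio scaling, 0 and 0 after quantile normalization or with no filter on low values, 20 and 5 with a pseudocount of 0.1, and 12 and 3 without trend. They became 78 and 18 with a pseudocount of 1, and 643 and 146 in a fit of all 8 libraries. With a replicate block they became 276 and 100, and with crossed numbers, an alternative chosen after seeing the data, 128 and 29. Leaving out 1 library gave 24 to 2099 higher and 9 to 1811 lower calls, lowest without LMPP library 2 and highest without CDP library 1. The 633 and 121 separated genes became 410 and 76 with a filter of 5 FPKM. The 121 became 196 with median-ratio scaling and 255 after quantile normalization, and leaving out 1 library gave 672 to 1515 upward and 119 to 1406 downward. In controls the 2494 and 2095 calls ranged from 1660 to 2269 and from 1251 to 2058 without 1 library, lowest without LMPP library 1 and, for lower calls, equally without LMPP library 2. The 0 and 0 calls for the difference between stage differences became 6 and 2 with a pseudocount of 1 and 7 and 0 with the replicate block, and ranged from 0 to 1761 and from 0 to 1765 without 1 library. A left-out library leaves its group with 1, which is assumed to vary like the others. Causes of these changes were not tested, beyond the fewer libraries or genes each alternative uses. Depth is unknown, and with 2 libraries a group, 1 of them apart, genes that missed the threshold cannot be called equal.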

Other observations

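The LMPP table held 2316 gene identifiers that the CDP table did not hold, 290 of them at 1 FPKM or more in both HDAC3-deficient LMPP libraries, and the CDP table held 1884 that the LMPP table did not hold, 6 of them at 1 FPKM or more in both HDAC3-deficient CDP libraries. The CDP table had no row at 0 in all 4 libraries and the LMPP table had 1086. Y-linked genes and *Xist* had rows in the LMPP table alone of the 2. *Eif2s3y* was there at 44.1 and 34.7 FPKM as deposited and *Ddx3y* at 15.5 and 7.88 in the 2 HDAC3-deficient LMPP libraries. *Xist* was listed at 0 in all 4 LMPP libraries. The CDP table had no row for *Xist* or for the Y-linked genes looked up, so it does not show the sex of the CDP mice. The shared rows hold 0 sex-linked and 0 mitochondrially encoded genes.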
